A study of Homo sapiens with 2 samples.

Results

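The 42 genes described here encode the protein subunits of the U1 and U2 small nuclear ribonucleoproteins (snRNPs) and the factors that help them find splice sites. They were taken from a fixed list of names, which was chosen with earlier results of these data known. A deletion site was counted for a gene when it lay in the RefSeq gene body. Of the 2960 sites in the deposited list, 14 lay in these genes, and they fell in 12 of the 42. The list came from anti-SF3A1 crosslinking and immunoprecipitation (CLIP-seq) of C4-2B cells, an established line of prostate cancer epithelial cells, here a derivative made ready for CRISPR interference. Both libraries belonged to the same group, with no further treatment named. Cells were collected 48 h after seeding, irradiated at 254 nm with 400 mJ/cm2, and precipitated with 2 µg of antibody. The libraries had been pooled before the sites were called, so no value below has a spread between replicates and no difference was tested.

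During splicing the U1 snRNP pairs with the 5′ splice site of an intron, and the U2 snRNP pairs with the branch point near the 3′ splice site. U2 carries the SF3A and SF3B complexes, which hold the branch point helix in place; SF3A1, the protein precipitated here, is the scaffold subunit of SF3A. A ring of Sm proteins is common to U1, U2, U4 and U5. Reverse transcriptase can skip a base that was crosslinked to protein, so a deletion shared by many sequenced tags can mark a contact. Both libraries were anti-SF3A1, with no control library. Whether the deletion at any listed site, complete or partial, marks a contact was therefore not tested. For each listed site the tags that cover the base and the tags that lack it were counted; the percentage lacking it is called the deleted share below. The genes of this set therefore encode the machinery, while the sites are positions in the genes' own transcripts.

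The list as a whole had a median of 54 tags over a site, at most 2630, and no fewer than 13 deleted tags at any site. It passed an FDR of 10 percent according to its name, so a gene without a listed site may still have been covered by tags. Among marker genes, 6 of 12 prostate luminal genes had a site, KLK2 and KLK3 included, against 1.10 at the rates of genes of like length and 10.1% of all protein-coding genes. None of 4 basal, 4 neuroendocrine, 4 stromal and 4 blood genes had one, but at most 0.384 genes per list would at those rates, so these zeros do not bear on the origin of the cells. Without a measure of transcript levels, more frequent contact and a more abundant RNA cannot be told apart in any count below.

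The U1 and U2 genes held sites more often than protein-coding genes in general. Sites fell in 12 of the 42 genes, or 28.6%, against 10.1% of all 19862 nuclear protein-coding genes. Long genes hold sites more often, and these genes were shorter than most, with a median gene body of 18.1 kb against 24.5 kb over all protein-coding genes. Genes of the same length strata (10 strata of equal gene number) would give 3.52 genes with a site at their own rates. Among the 15579 other protein-coding genes between the shortest and longest of the set (0.69 to 83.0 kb), 7.55% had a site. Per 100 kb of gene body the set held 1.30 sites, against 0.372 in those other genes of the same length range. No test was made of this excess, because the genes were chosen with earlier results of these data known. DHX15 and SF3B3, 2 of the 42 genes, held 2 sites each and the other 10 genes 1 each, while 2.09% of protein-coding genes held 2 or more.

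The sites were concentrated in the longer genes of the set. Of the 11 genes between 35.7 and 84.3 kb, 9 had a site, against 1.49 at the rates of their strata and 13.4% of the 3972 protein-coding genes in the same 2 strata. They were LUC7L3, TIA1, LUC7L, SF3B1, SF3B3, DHX15, U2SURP, RBM25 and LUC7L2. The 2 without a site were the RNA helicases DDX42 (45.5 kb) and DDX46 (72.3 kb). Of the 31 shorter genes, PHF5A, SNRPA1 and SNRPB had a site, 3 genes against 2.04 at the rates of their strata and 5.6% of all protein-coding genes in those shorter strata. By number of genes, the excess over genes of like length thus lay mostly with the longer genes. This split by length was chosen after the values were seen. The shorter strata were not alike: from 6.56 to 10.9 kb, 2 of 6 genes had a site, against 5.44% of all genes there. From 10.9 to 16.6 kb it was 1 of 11, against 5.94%, and the remaining shorter strata had none. The median length was 42.9 kb for the 12 genes with a site and 14.9 kb for the 30 without.

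**Figure D1:**
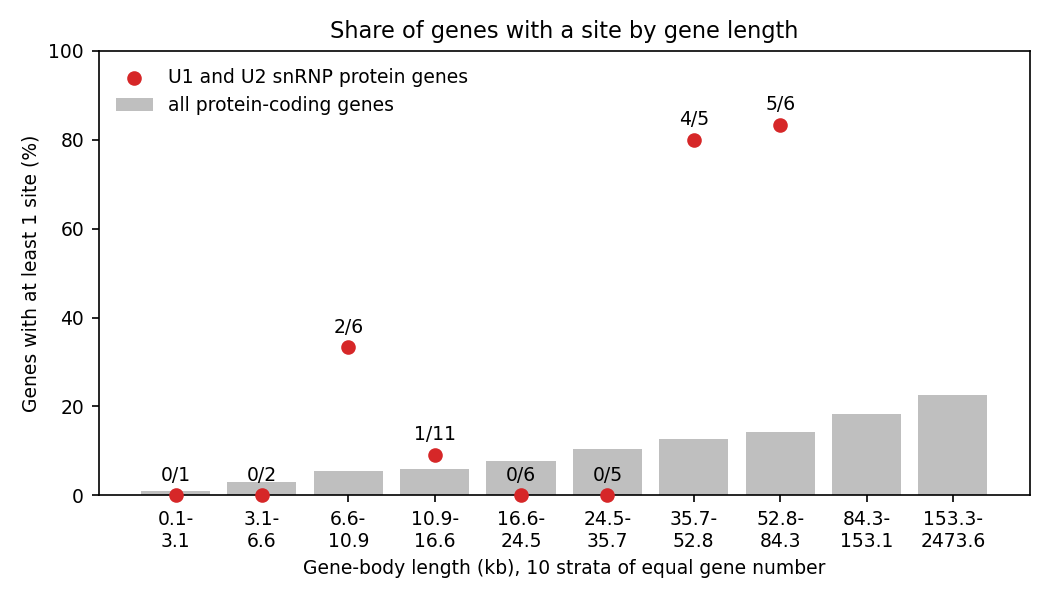
Percent of genes with at least 1 site (vertical axis) in 10 strata of gene-body length in kb (horizontal axis); bars are all protein-coding genes and points the U1 and U2 snRNP protein genes, marked with genes with a site over genes in the stratum. The points stand far above the bars in the strata from 35.7 to 84.3 kb, at 4 of 5 and 5 of 6 genes, and no gene of the set is longer than that. The point from 6.6 to 10.9 kb, at 2 of 6 genes, also stands above its bar.

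SF3A, the complex of the precipitated protein, had no site in any of its 3 genes. SF3A1 (24.9 kb), SF3A2 (11.8 kb) and SF3A3 (33.0 kb) lie in strata where 5.94% to 10.4% of genes have a site, which would give 0.267 genes. The nearest listed site to SF3A2 lay 7376 nt outside its body, in the neighbouring gene DOT1L, with 15 of 15 tags deleted. It was the only listed site within 10 kb outside any of the 42 gene bodies. SF3A1 and SF3A3 were 578438 and 248115 nt from the nearest site.

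SF3B, the complex that clamps the branch point helix, had sites in 3 of its 7 genes, against 0.496 at the rates of their length strata. SF3B1 is its largest subunit and is recurrently mutated in several cancers. Its gene (chromosome 2, 197389784 to 197435093) held a site at 197409745, where 22 of 47 tags carried the deletion. This share of 46.8% (95% Clopper-Pearson interval 32.1 to 61.9) was the lowest of the 14 sites, and only 2.14% of sites in protein-coding genes had a lower share. All such intervals cover counting error only and take each tag as an independent molecule.

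PHF5A is a small zinc-finger protein that forms the branch adenosine pocket together with SF3B1. Its gene (chromosome 22, 41459717 to 41468692) is 8.98 kb long and held a site at 41465179 with 62 of 70 tags deleted, a share of 88.6% (78.7 to 94.9). SF3B1 and PHF5A were the only genes of the set with a share under 90%. PHF5A also had the highest density of the set, 11.1 sites per 100 kb, which rests on a single site. PHF5A has 7 named pseudogenes, and whether tags at this site could also match them was not tested.

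SF3B3 encodes a propeller-shaped scaffold protein of SF3B. Its gene (chromosome 16, 70523816 to 70577668) held a pair of sites, at 70553573 and 70555204, with the deletion in all 52 and all 30 tags. They lay 1631 nt apart near the middle of the gene. Of 548 pairs of neighbouring sites in protein-coding genes, over sites with no second gene, 66 lay under 2000 nt apart, and the median distance was 17606 nt. The remaining subunits SF3B2 (16.9 kb), SF3B4 (4.49 kb), SF3B5 (0.69 kb) and SF3B6 (8.74 kb) had no site. All 4 were shorter than SF3B1 and SF3B3, but SF3B2 was longer than PHF5A (8.98 kb), which had a site.

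The proteins that bind U2 snRNA itself were split. SNRPA1 and SNRPB2 encode partner proteins that sit together on a stem-loop of U2. SNRPA1 (chromosome 15, 101281510 to 101295248) held a site at 101294270, 978 nt from the 5′ end of its body, with the deletion in all 50 tags (92.9% to 100%). SNRPB2, of like length at 12.5 kb against 13.7 kb, held none. With a single pooled list this difference has no measure of error.

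No site lay in the 4 genes that mark the branch point and the 3′ splice site before U2 joins. U2AF1 and U2AF2 encode the subunits of the factor that reads the polypyrimidine tract and the terminal AG, SF1 binds the branch point sequence, and PUF60 binds uridine-rich tracts. All 4 are short, from 13.0 kb for PUF60 to 19.7 kb for U2AF2, and genes of their strata would give 0.256 genes with a site.

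Among 8 U2-associated proteins, 2 genes had a site, against 0.881 at the rates of their strata. DHX15 encodes a helicase that takes spliceosomes apart. Its gene (chromosome 4, 24527475 to 24584554) held sites at 24574977 and 24529675, with the deletion in all 33 and all 31 tags. They lay 45302 nt apart, at 16.8% and 96.1% of the way along the gene, in contrast to the close pair in SF3B3. U2SURP, which encodes an SR-related protein of the U2 particle, held a site at 143051081 on chromosome 3 (gene body 143001570 to 143060725), with the deletion in all 24 tags. That was the lowest coverage of the 14 sites; 17.4% of sites in protein-coding genes had fewer tags. RBM17, CHERP, DDX46, HTATSF1, SMNDC1 and DDX42 had no site, although DDX46 is longer than both genes that did.

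The 3 proteins specific to the U1 particle had no site. SNRNP70 and SNRPA encode proteins that each bind a stem-loop of U1 snRNA, and SNRPC one that steadies its pairing with the 5′ splice site. Their gene bodies measure 23.2, 14.2 and 16.4 kb. SNRPA and SNRPB2 encode related proteins of U1 and U2, and neither gene had a site. Rates of their strata would give 0.196 genes for the U1 core.

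The factors that help U1 at the 5′ splice site had the most genes with a site of any role, 5 of 8, against 0.899 at the rates of their strata. All 3 genes of the LUC7-like family, relatives of a yeast U1 subunit, had 1 site each. LUC7L3 (chromosome 17, 50719603 to 50756219) held a site at 50721388, 1785 nt from the 5′ end, with 212 of 214 tags deleted. LUC7L (chromosome 16, 188990 to 229449) held a site at 211560 with 186 of 189 tags deleted. LUC7L2 (chromosome 7, 139340472 to 139423454) held a site at 139398547 with the deletion in all 34 tags; this base also lies in the readthrough gene FMC1-LUC7L2.

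The LUC7L3 and LUC7L sites had the highest coverage of the set. They had more tags than 96.6% and 94.6% of sites in protein-coding genes, and together they held 42.6% of the 945 tags over the 14 sites. The LUC7L2 site had fewer tags than the median site in protein-coding genes, 34 against 52. Deleted shares differed little among the 3, at 99.1% (96.7 to 99.9) in LUC7L3, 98.4% (95.4 to 99.7) in LUC7L and 100% (89.7 to 100) in LUC7L2, with overlapping intervals. The sites lay at 4.87%, 44.2% and 70.0% of the length of their genes, so they did not share a relative position.

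TIA1 and TIAL1 encode related proteins that bind uridine-rich sequence downstream of 5′ splice sites. TIA1 (chromosome 2, 70209444 to 70248793) held a site at 70213384 with the deletion in all 88 tags (95.9% to 100%), the third highest coverage of the set. TIAL1, at 23.5 kb against 39.4 kb, held none. RBM25, a U1-associated protein with an RNA recognition motif, had a site at 73100658 on chromosome 14 (gene body 73058534 to 73123899), with the deletion in all 43 tags. The U1-associated PRPF39 (32.2 kb) and the helicase gene DDX5 (8.61 kb) had no site.

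Of the 7 Sm ring genes only SNRPB had a site, against 0.408 at the rates of their strata. SNRPB encodes the SmB and SmB′ proteins, and its gene (chromosome 20, 2461642 to 2470789) held a site at 2461854 with 36 of 40 tags deleted (interval of the share 76.3% to 97.2%). It lay 212 nt from the 3′ end of the gene body, closer than any other of the 14 sites. In protein-coding genes, 2.23% of the 2336 sites with no second gene at the site lay under 500 nt from the 3′ end. SNRPD1, SNRPD2, SNRPD3, SNRPE, SNRPF and SNRPG had no site; their bodies measure 4.86 to 21.2 kb. Named pseudogenes number 20 for SNRPG and 11 for SNRPE, but 0 for SNRPD1 and SNRPD3, which also had no site. The name of the list calls its tags unique, without saying whether this means unique placement or removal of duplicate tags. Whether pseudogenes affect which genes have a listed site was not tested. In all, 18 of the 42 genes had 81 named pseudogenes, and no site lay in any of these.

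**Figure D2:**
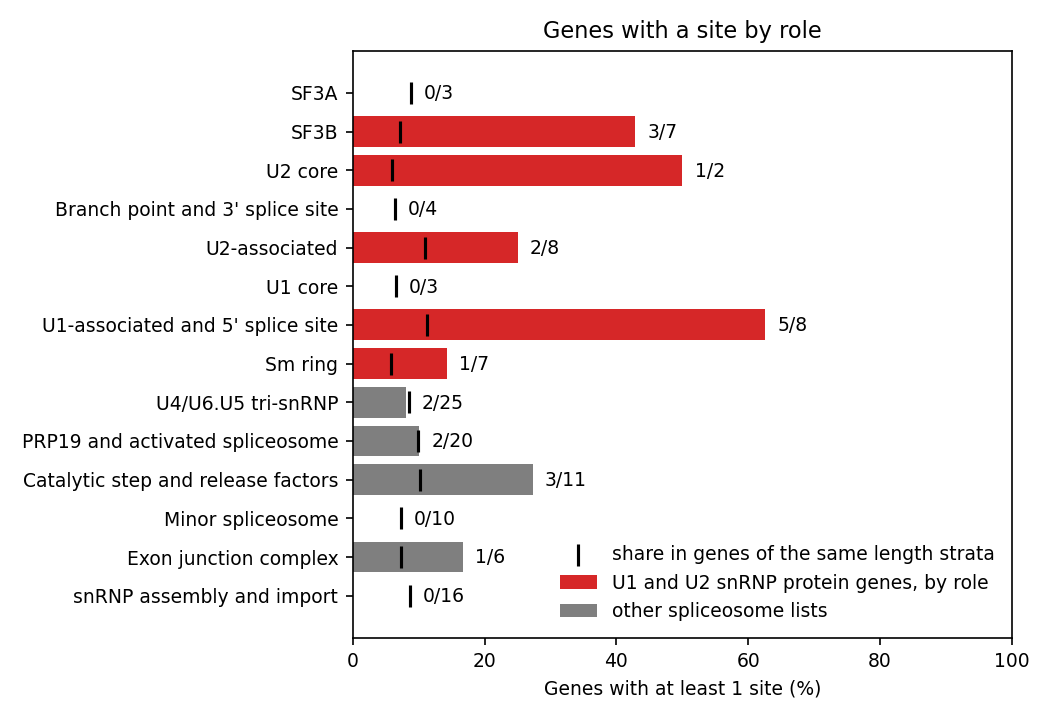
Percent of genes with at least 1 site (horizontal axis) for the 8 roles of the U1 and U2 snRNP protein genes (red) and 6 other spliceosome lists (grey), labelled with genes with a site over genes in the list; black ticks mark the share expected from genes of the same length strata. The U1-associated and 5′ splice site factors reach 5 of 8, while SF3A, the U1 core and the branch point and 3′ splice site factors are at 0.

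The strand of the sites was that of the host gene wherever it was known. The promoter table gave the strand of 10 of the 12 genes with a site, and all 11 sites in them lay on it, including the FMC1-LUC7L2 base. In protein-coding genes with a known strand and no second gene at the site, 96.6% of 1944 sites did so. The strand of SF3B3 and PHF5A was not in that table; both SF3B3 sites were on the plus strand and the PHF5A site on the minus strand. Of the 14 sites, 13 lay in no other annotated gene, and none lay in a snoRNA or microRNA. None fell in an annotated promoter window, which runs from 250 bases before to 50 after a gene's start. Sites were counted inside gene bodies, so only those 50 bases of a gene's own window could hold one. SF3B3 and PHF5A had no window in that table, so this absence was largely set in advance. Sites occurred along the gene bodies from 4.87% (LUC7L3) to 97.7% (SNRPB), with 9 of 14 past the midpoint. Positions were measured along the strand of the site, which for SF3B3 and PHF5A was taken to be that of the gene. Of the 2336 sites in protein-coding genes with no second gene at the site, a limit that the LUC7L2 base does not meet, 50.7% lay past the midpoint. The table holds no exons or introns, so which part of a transcript each site lies in was not analysed here.

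**Figure D3:**
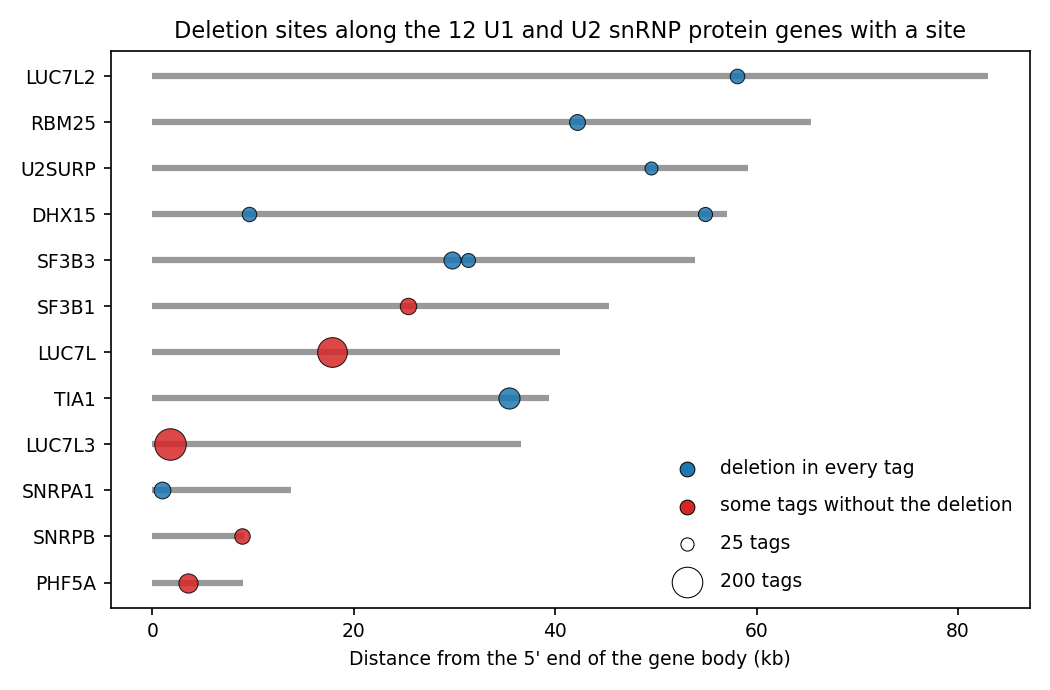
Gene bodies (grey bars, 5′ end at 0, horizontal axis in kb) of the 12 genes with a site, sorted by length; circles are the 14 sites, with an area that grows with the number of tags, blue where every tag had the deletion and red where some did not. The LUC7L3 and LUC7L circles are the largest, and the SF3B3 pair lies close together while the DHX15 pair lies near opposite ends. For SF3B3 and PHF5A the 5′ end was set by the strand of their sites.

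Most sites in the set had the deletion in every tag, as in the list at large. This was so at 9 of the 14 sites, or 64.3%, against 77.3% of the 2571 sites in protein-coding genes. The other sites were those of LUC7L3, LUC7L, SNRPB, PHF5A and SF3B1, with 2, 3, 4, 8 and 25 tags without the deletion. A share under 90% was found at 2 of 14 sites, PHF5A and SF3B1, against 5.83% of sites in protein-coding genes, and none had a share under 40%. Sites had a median of 45 tags, from 24 in U2SURP to 214 in LUC7L3, against 52 over protein-coding sites. The share of tags with the deletion at SF3B1 set that site apart, since its interval did not overlap that of any other site of the set.

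**Figure D4:**
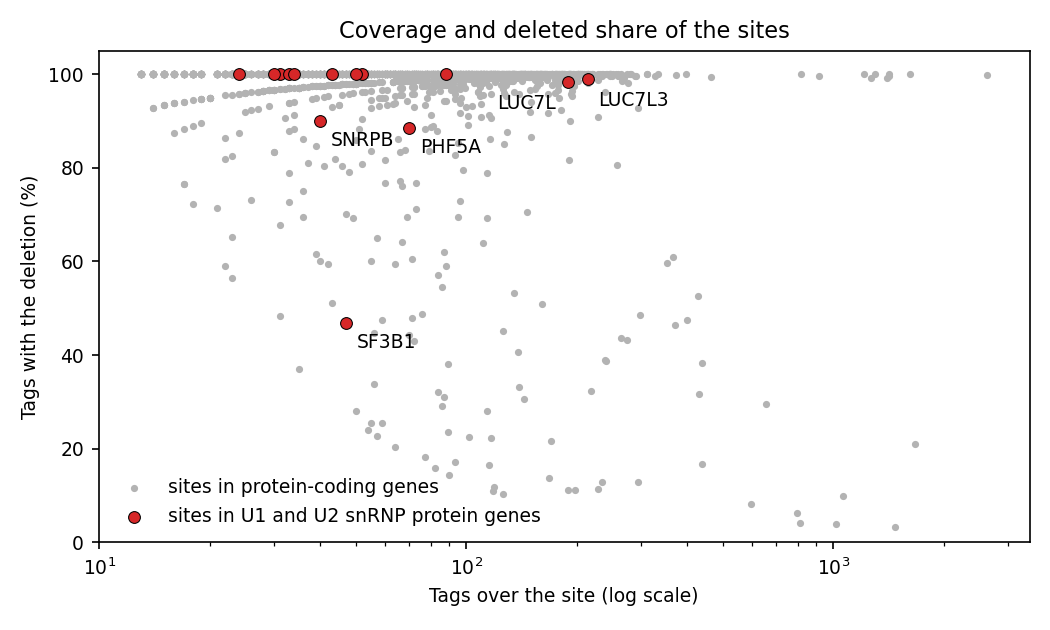
Percent of tags with the deletion (vertical axis) against tags over the site (horizontal axis, log scale) for sites in protein-coding genes (grey) and in the U1 and U2 snRNP protein genes (red); named points are the 5 sites with some tags lacking the deletion. SF3B1 stands alone at 46.8%, PHF5A and SNRPB are near 90%, and the others lie at or just under 100%.

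Other genes of the spliceosome and of snRNP assembly were counted beside these. Over 6 lists together, 8 of 88 had a site, or 9.09%, against 7.77 genes at the rates of their strata and 10.1% of all protein-coding genes. In the strata from 35.7 to 84.3 kb, where 9 of 11 U1 and U2 genes had a site, 1 of 21 of these other genes did, against 2.78 at the rates of their strata. In shorter strata the sets were close, with 3 of 31 U1 and U2 genes (9.68%) and 5 of 64 others (7.81%, 4.35 genes at the rates of their strata), and 2 of 3 others in longer strata had a site. This split by length was set by where the U1 and U2 genes had sites, which favours a contrast in the longer strata. Over all lengths, 12 of 42 U1 and U2 genes had a site. The difference between the sets was not tested. The tri-snRNP list had 2 of 25, PRPF8, the protein at the catalytic centre (35 of 35 tags), and SNU13, a U4 binding protein (29 of 29 tags). The list of the PRP19 complex and the activated spliceosome had 2 of 20, CTNNBL1 (122 of 123 tags) and CWC27 (22 of 22 tags), whose genes measure 178 and 250 kb.

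Catalytic step and release factors had 3 of 11 (27.3%), a share close to that of the U1 and U2 genes, among them the helicases DHX38 (21 of 21 tags) and DDX41 (23 of 23 tags), against 1.12 at the rates of their strata. The exon junction complex had 1 of 6, CASC3 (71 of 71 tags). No site lay in the 10 genes of the minor spliceosome (0.728 at the rates of their strata) or in the 16 genes of snRNP assembly and import (1.40), which include the SMN complex. The deleted share was 100% at 8 of the 9 sites in these lists, and none had a share as low as the SF3B1 site.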

How the data were processed

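CLIP-seq of 2 anti-SF3A1 libraries was deposited as 1 pooled list of deletion sites. Tools named in the submitters' processing notes are UMI-tools, SAMtools, BWA 0.7.17 and cutadapt, with build hg38; no source used here gives their roles or settings. Deleted-tag counts were used as deposited by the authors, without normalization, and equalled the count in the position's name, the other deposited text, on all 2960 lines. Depth per library is unknown.

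Sites were placed in RefSeq GRCh38.p14 gene bodies (58952 genes on primary chromosomes, 19862 of them protein-coding), on either strand; coordinates are 1-based. The expected number of genes is the sum, over a list, of the share of protein-coding genes with a site in each gene's length stratum. Gene placement was tested on simulated data. Members and lists were chosen with earlier results of these data known. All members, and the other listed spliceosome genes with a site, were to be named; 1 of the latter is not reported here. Neither surrounding sequence nor exons were used. Python 3.11.15, pandas 2.3.3 and scipy 1.17.1 were used.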

Additional observations from a re-analysis of the deposited data

How the results depend on the processing

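The 12 genes and 14 sites did not change when sites within 50 nt were merged or gene bodies widened by 1000 bases, and came to 11 and 13 without sites in another gene body and to 10 and 11 on the gene's own strand, among the 36 genes with a known strand. Keeping sites above the list's median of 50 deleted tags left 5 genes (LUC7L, LUC7L3, PHF5A, SF3B3 and TIA1) with 5 sites, against 1.83 genes at the rates of their strata and 5.66% of protein-coding genes. A deleted share under 0.9 left 2 genes, SF3B1 and PHF5A, with 2 sites, against 0.297 and 0.730%. A share under 0.4 left 0 genes and 0 sites, against 0.0896 and 0.216%. These settings keep fewer sites by construction. With 5, 20 or no length strata the expected 3.52 genes became 3.50, 3.46 and 4.26. Leaving out DHX15 or SF3B3 left 12 sites, and the median deleted share stayed at 100% or, above the median of deleted tags, 99.1%. No paired analysis was possible because there is 1 group and its libraries were pooled, so neither library could be left out. Tags in a site, 24 to 214, limit each share.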
